A study of Mus musculus with 12 samples.

Results

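The genes described here are *Yap1*, its paralog *Wwtr1* (which encodes TAZ), the 4 TEAD genes *Tead1*, *Tead2*, *Tead3* and *Tead4*, and *Vgll4*. They were chosen by symbol, and all 7 were found among the 25676 genes of the deposited expression table. RNA sequencing was applied to whole livers of 12 C57BL/6 mice aged 3 to 4 months. The groups were 3 wild-type (WT) males, 3 WT females, 3 *Foxa3*-Cre YAP1 knockout (KO) males and 3 KO females, with 1 library from each mouse. The label of the WT animals names no Cre and no floxed allele, and the KO label does not say whether other alleles were carried. The replicate numbers follow the order of deposition, and equal numbers in different groups pair no animals.

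YAP1 and TAZ are transcriptional coactivators at the end of the Hippo pathway. They do not bind DNA themselves: in the nucleus they attach to TEAD factors, which supply the DNA binding. The LATS kinases phosphorylate both coactivators and so keep them in the cytoplasm, and VGLL4 competes with them for TEAD. In liver the pathway is known for its part in organ size and in the formation and maintenance of bile ducts. *Foxa3* is expressed in the endoderm that gives rise to hepatocytes and cholangiocytes, so a *Foxa3*-driven Cre acts in those epithelial lineages. Endothelial, stellate and blood-derived cells have other origins, and whole liver contains them all. The values below are therefore sums over cell types, and fewer cells of a type cannot be told apart from less RNA per cell.

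The measurements are TPM, a length-adjusted share of transcripts that sums to 1000000 in each library, so levels can be compared between genes. Between 14321 and 15482 genes were above 0 in a library. The recovered read numbers behind the values are given with exact Poisson intervals at 95%, which cover counting error only. Hepatocyte markers, read as a check of the tissue label, summed to 77961 to 105250 TPM in WT and 58141 to 83707 TPM in KO. Y-linked genes summed to 52.5 to 101 TPM in males and to at most 0.122 TPM in females. The median of all tested genes was shifted by 0.35 on the log2 scale towards KO in the deposited TPM, and by -0.036 after rescaling of the libraries by median of ratios. Genotype differences are therefore given on both scales, and a gene near 0.35 on the first moved with the bulk of the genes. By limma 50.1% of all tested genes were higher in KO on deposited TPM and 4.82% lower. Stellate and myofibroblast markers summed to 27.4 to 55.5 TPM in WT and 114 to 258 TPM in KO, with 7 of 10 higher and 0 lower by limma. *Col1a1*, *Col1a2* and *Col3a1* made up most of the KO sums, at 62.0 ± 17.2, 48.8 ± 12.1 and 67.4 ± 17.8 TPM (SD, n = 6 each). *Lrat* (-0.54, limma adjusted p = 0.0671), *Reln* (0.28, adjusted p = 0.199) and *Acta2* (0.78, adjusted p = 0.0648) were not called. After rescaling *Lrat* was lower (-0.91, limma adjusted p = 0.00334). Macrophage markers summed to 47.1 to 155 TPM in WT and 193 to 379 TPM in KO (7 of 7 higher). For cholangiocyte markers the sums were 37.8 to 71.7 TPM in WT and 293 to 758 TPM in KO, with 5 of 7 tested markers higher and 1 lower. *Spp1* made up most of these sums, at 33.8 ± 11.2 TPM in WT and 492 ± 195 TPM in KO (SD, n = 6 each). The duct keratin *Krt19* was at 1.38 ± 0.641 TPM in WT and 1.24 ± 0.728 TPM in KO and was not called, *Krt7* was under the minimum for testing, and *Epcam* fell from 0.940 ± 0.341 to 0.515 ± 0.169 TPM. On rescaled TPM 20.9% of all genes were higher and 18.7% lower. The marker counts higher and lower there were 6 and 1 for stellate, 6 and 0 for macrophage and 4 and 1 for cholangiocyte markers. For hepatocyte markers (5 tested) they were 1 and 2 on deposited and 0 and 3 on rescaled TPM. The rescaled hepatocyte sums did not overlap (92210 to 112640 in WT, 50443 to 74554 in KO). *Alb* made up most of them, at 70630 ± 12751 deposited TPM in WT and 58427 ± 10061 in KO (SD, n = 6 each). *Hnf4a* was higher on deposited TPM (0.33, limma adjusted p = 0.0154) and not called after rescaling (-0.13, adjusted p = 0.436). *Apoa1* was called on neither scale. Endothelial sums overlapped, at 50.2 to 77.1 TPM in WT and 30.9 to 120 TPM in KO, with 1 marker higher and 1 lower of 8, or 0 and 3 after rescaling. Sums for other leukocytes were 2.45 to 13.3 TPM in WT and 14.1 to 32.7 TPM in KO. Of 5 tested markers 2 were higher, against 50.1% of all genes, and the median difference was 0.16 against 0.35. The sums overlapped after rescaling, at 2.90 to 14.3 and 10.5 to 25.5, with 1 marker higher. No marker of the stellate, macrophage, cholangiocyte or endothelial lists was at 0 throughout either genotype. The part of these cell types in the results that follow was not tested.

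The promoters of the coactivator pair are shown because both hold the TEAD core motif GGAATG in the 250 bases before the annotated start. The sequences are from RefSeq on GRCm38.p6, and capitals mark the motif. Both strands were searched. The *Yap1* stretch is chr9:8004597-8004846 and the *Wwtr1* stretch is chr3:57575911-57576160, each on the minus strand and each read 5′ to 3′ along the gene.
Yap1: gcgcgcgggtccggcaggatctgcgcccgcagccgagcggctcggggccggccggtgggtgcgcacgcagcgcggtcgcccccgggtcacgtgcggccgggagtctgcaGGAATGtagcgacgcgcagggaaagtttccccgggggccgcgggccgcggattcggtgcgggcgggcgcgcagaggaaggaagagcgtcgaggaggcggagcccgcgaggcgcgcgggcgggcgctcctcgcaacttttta
Wwtr1: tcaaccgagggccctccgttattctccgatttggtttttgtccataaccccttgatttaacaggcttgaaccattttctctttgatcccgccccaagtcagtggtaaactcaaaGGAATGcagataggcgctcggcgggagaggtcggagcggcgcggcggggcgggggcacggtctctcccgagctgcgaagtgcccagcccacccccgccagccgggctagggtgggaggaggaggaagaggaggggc
The first base of the motif lies at position -141 in *Yap1* and -136 in *Wwtr1*, counted from the start of transcription. Promoters were present in the RefSeq table for 5 of the 7 genes. *Tead1* and *Tead4* were not matched. Of the 5, 4 had the motif in a window of 300 bases around a start: *Yap1*, *Wwtr1*, *Vgll4* (at -82) and *Tead3*. It was in neither the *Tead2* window nor 1 of the 3 *Tead3* windows. By window, 6 of the 8 of these genes held it, against 14.7% of all 32851 windows of this length. The 2 *Wwtr1* windows overlap and hold the same match. A match describes letters in the window and is not evidence of binding.

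*Yap1* (chromosome 9, 7931999 to 8004596, minus strand) fell in KO livers of both sexes and left a low, measurable remainder. In WT males its level was 27.5, 34.9 and 34.0 TPM, and in WT females it was 23.0, 30.0 and 27.8 TPM, from 996 to 1867 reads. In KO males it was 1.39, 0.994 and 1.80 TPM, from 55, 39 and 66 reads. In KO females it was 3.11, 2.44 and 2.41 TPM, from 150, 99 and 108 reads. Every KO library lay below every WT library, and every KO male lay below every KO female. The mean was 29.5 ± 4.46 TPM (SD, n = 6) in WT and 2.02 ± 0.775 TPM (SD, n = 6) in KO, a WT mean 14.6-fold higher. On log2(TPM + 1) the difference was -3.36 (SE 0.168, limma adjusted p = 4.95e-09), and after rescaling it was -3.73. The exact permutation p, two-sided with genotype labels permuted within sex, was 0.005 on both scales. The design can give no smaller value.

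These comparisons have a high background. By limma, 54.9% of 12278 tested genes passed an adjusted p of 0.05, 50.1% being higher in KO and 4.82% lower. On rescaled TPM 39.6% passed, 20.9% higher and 18.7% lower. Complete separation with all 6 KO values below all 6 WT values occurred in 1.88% of genes (8.19% after rescaling), and with all 6 KO values above in 28.7% (10.8% after rescaling). Of the 6 genes of the set that were tested, 1 was lower (*Yap1*) and 3 were higher (*Wwtr1*, *Tead1* and *Tead3*) on deposited TPM. After rescaling, 1 was lower and 2 were higher (*Wwtr1* and *Tead1*). *Tead4* was under the minimum mean of 0.5 TPM and was not tested across genes.

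**Figure D1:**
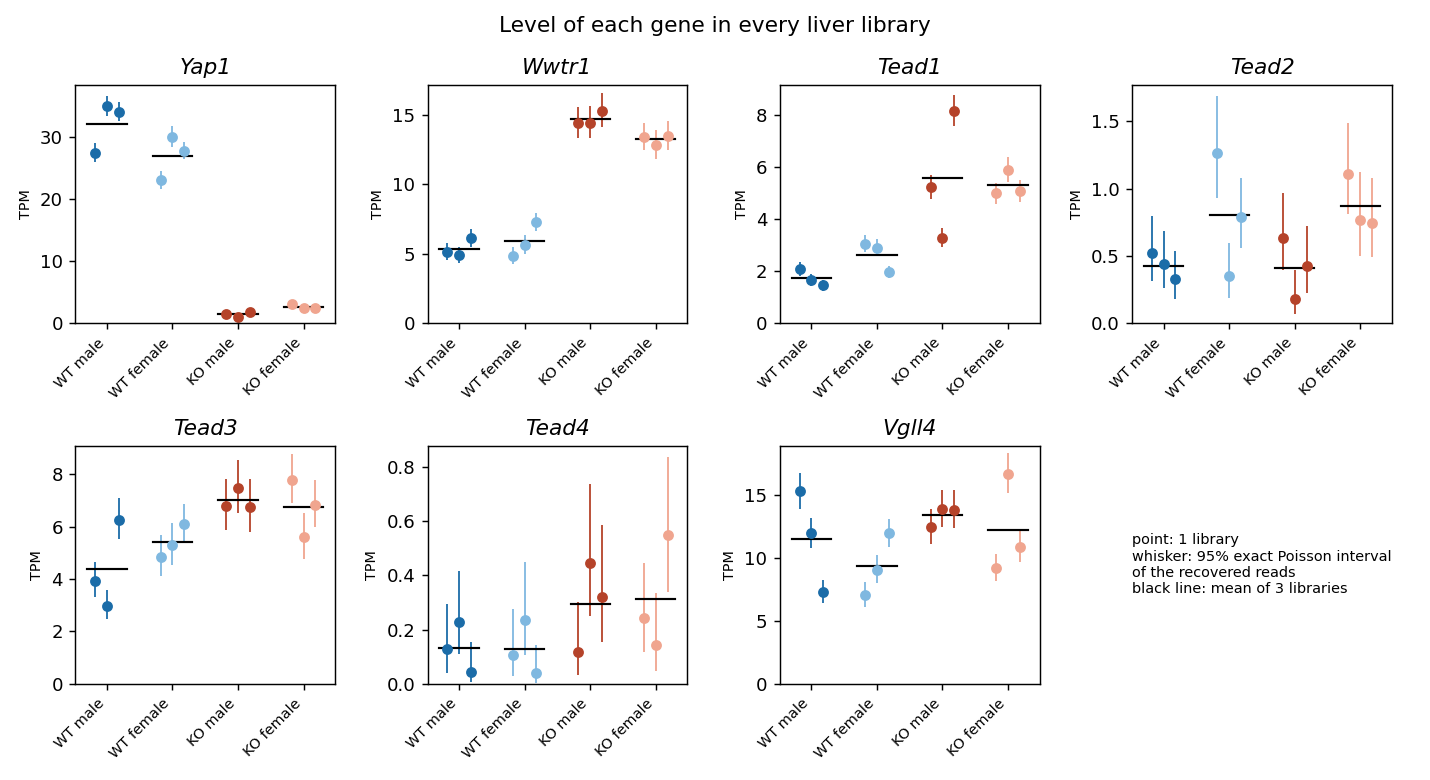
TPM of each of the 7 genes in the 12 libraries, with a separate vertical scale starting at 0 for each gene. Points are single livers with the 95% Poisson interval of their reads, and black lines are means of 3 livers. The KO points of Yap1 sit at the bottom of its panel, those of Wwtr1 and Tead1 lie above all WT points, and the points of Tead2, Tead3, Tead4 and Vgll4 overlap between genotypes.

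*Wwtr1* (chromosome 3, 57455649 to 57575910, minus strand), which encodes the coactivator TAZ, rose in KO. It was at 5.11, 4.89 and 6.12 TPM in WT males and at 4.85, 5.64 and 7.30 TPM in WT females. In KO males the level was 14.4, 14.5 and 15.3 TPM, and in KO females it was 13.4, 12.9 and 13.5 TPM. The genotypes did not overlap, and the lowest KO library (12.9 TPM, interval 11.9 to 13.9) was above the highest WT library (7.30 TPM, interval 6.67 to 7.97). These values rest on 239 to 738 reads each. The mean went from 5.65 ± 0.942 TPM to 14.0 ± 0.888 TPM (SD, n = 6 each), a ratio of 2.48. The difference on log2(TPM + 1) was 1.18 (95% interval 0.94 to 1.42, limma adjusted p = 1.62e-06) on deposited TPM and 0.77 (0.55 to 0.98, adjusted p = 5.46e-05) after rescaling. Relative to the median gene these are 0.83 and 0.80. The exact permutation p was 0.005 on both scales.

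The *Wwtr1* rise passed the limma threshold in each sex, at 1.31 in males (adjusted p = 3.73e-05; 46.1% of genes were called in males) and 1.06 in females (adjusted p = 0.000228; 33.8% called). After rescaling it was 0.79 in males (limma adjusted p = 0.00192; 24.1% of genes called) and 0.74 in females (adjusted p = 0.00287; 26.1% called). The direct test of a sex difference in the genotype effect did not pass by limma (difference 0.25, 95% interval -0.22 to 0.72, adjusted p = 0.746). The difference was 0.11 without WT female 3, 0.36 without WT female 1 and 0.055 after rescaling, none of them called. Across the tested genes, 0.912% passed that test. The KO libraries were close to each other, ranging from 12.9 to 15.3 TPM, while *Yap1* in the same libraries ranged from 0.994 to 3.11 TPM.

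**Figure D2:**
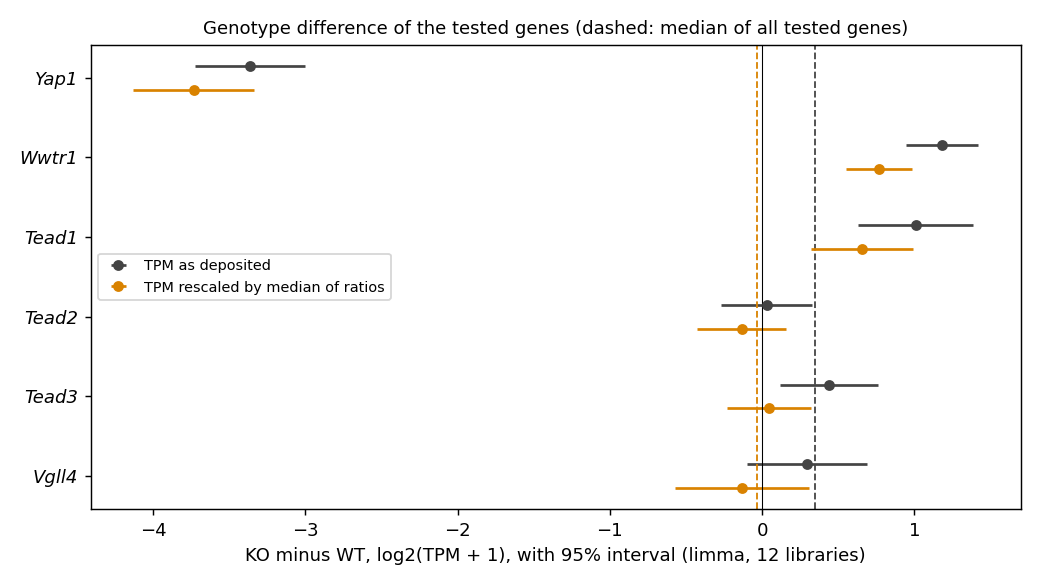
KO minus WT difference on log2(TPM + 1) with its 95% interval from limma, for deposited and rescaled TPM, beside the median of all tested genes on each scale. Yap1 is far to the negative side on both scales, Wwtr1 and Tead1 are positive on both, and Tead3 moves from 0.44 to 0.048 with the rescaling.

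Among the DNA-binding partners, *Tead1* (chromosome 7, 112679318 to 112906807, plus strand) rose in KO. It was at 2.09, 1.64 and 1.45 TPM in WT males and 3.04, 2.90 and 1.98 TPM in WT females. In KO males it was at 5.24, 3.29 and 8.19 TPM, and in KO females at 4.996, 5.90 and 5.09 TPM. All KO libraries lay above all WT libraries, but KO male 2, at 3.29 TPM, was only just above the highest WT female, at 3.04 TPM. The counting intervals of these 2 libraries overlapped (2.94 to 3.67 and 2.72 to 3.39). After rescaling, KO male 2 fell inside the WT range, at 2.85 against a WT maximum of 3.28. The mean was 2.18 ± 0.652 TPM in WT and 5.45 ± 1.60 TPM in KO (SD, n = 6 each). The log2 difference was 1.01 (95% interval 0.63 to 1.38, limma adjusted p = 0.000311) on deposited and 0.65 (0.32 to 0.99, adjusted p = 0.00444) on rescaled TPM.

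Within males the *Tead1* difference was 1.21 (limma adjusted p = 0.00176), and within females 0.81 (adjusted p = 0.0207). The rescaled male difference was 0.78 (limma adjusted p = 0.0216). The female call was lost after rescaling (0.53, adjusted p = 0.0970), without WT female 3 (adjusted p = 0.0837) and without KO female 2 (adjusted p = 0.0620). The sex difference in the effect was 0.40 (interval -0.34 to 1.14) and did not pass by limma (adjusted p = 0.743). It was 0.12 without KO male 3, 0.67 without KO male 2 and 0.25 after rescaling, none of them called. KO male 2 had the lowest *Tead1* of the KO livers. It also had the lowest stellate marker sum among them, at 114 TPM against 217 to 258 TPM. That library was also lowest for hepatocyte markers (58141 TPM, the others 69075 to 83707), endothelial markers (30.9 TPM, the others 43.2 to 120) and macrophage markers (193 TPM, the others 246 to 379). It was not lowest for cholangiocyte markers (635 TPM, the others 293 to 758) or other leukocyte markers (15.8 TPM, the others 14.1 to 32.7). The part of those cells in its *Tead1* level was not tested.

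*Tead3* (chromosome 17, 28331671 to 28350817, minus strand) had the highest level of the 4 TEAD transcripts in WT. It was at 3.94, 2.99 and 6.26 TPM in WT males and 4.85, 5.30 and 6.09 TPM in WT females. In KO males it was at 6.80, 7.48 and 6.74 TPM and in KO females at 7.80, 5.59 and 6.84 TPM. The genotypes overlapped, with WT male 3 and WT female 3 above the lowest KO library. On deposited TPM *Tead3* rose by 0.44 on the log2 scale (95% interval 0.12 to 0.76, limma adjusted p = 0.0230, exact permutation p = 0.02), which is 0.089 above the median gene. After rescaling the difference was 0.048 (-0.23 to 0.32, limma adjusted p = 0.794). The deposited-scale call was lost without WT male 1 (0.40, limma adjusted p = 0.0519) and without KO male 2 (0.40, adjusted p = 0.0515).

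*Tead2* and *Tead4* were the low members of the family. *Tead2* (chromosome 7, 45215753 to 45233644, plus strand) was at 0.518, 0.440 and 0.326 TPM in WT males and 1.27, 0.348 and 0.787 TPM in WT females. In KO males it was at 0.634, 0.183 and 0.424 TPM and in KO females at 1.11, 0.766 and 0.745 TPM. The ranges overlapped almost wholly, and each value rests on 6 to 46 reads. The limma difference was 0.030 (95% interval -0.27 to 0.33, adjusted p = 0.866), and -0.14 after rescaling (adjusted p = 0.459). *Tead2* overlaps *Cd37*, on the opposite strand and at no more than 4.19 TPM, over only 13 bases.

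*Tead4* (chromosome 6, 128224288 to 128300823, minus strand) rested on 2 to 21 reads per library. It was at 0.127, 0.226 and 0.0425 TPM in WT males and 0.108, 0.236 and 0.0395 TPM in WT females. In KO males it was at 0.118, 0.447 and 0.319 TPM and in KO females at 0.242, 0.144 and 0.547 TPM. The 3 highest values were from KO livers, yet the lowest KO male was below 3 WT libraries. The difference on log2(TPM + 1) was 0.20 with an exact permutation p of 0.065, and 0.12 with an exact permutation p of 0.225 after rescaling.

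*Vgll4* (chromosome 6, 114860628 to 114969994, minus strand), the competitor of the coactivators for TEAD, was at 15.3, 11.9 and 7.29 TPM in WT males. WT females had 7.02, 9.06 and 11.9 TPM. KO males had 12.4, 13.8 and 13.8 TPM, and KO females 9.16, 16.6 and 10.8 TPM. The genotypes overlapped, and the lowest and the highest WT male differed by more than counting error (intervals 6.43 to 8.24 and 13.9 to 16.7). The mean was 10.4 ± 3.20 TPM in WT and 12.8 ± 2.61 TPM in KO (SD, n = 6 each). The limma difference was 0.30 (95% interval -0.10 to 0.69, adjusted p = 0.184). After rescaling it was -0.13 (-0.57 to 0.31, adjusted p = 0.642). The intervals include 0 and also differences of more than 0.5 in the direction of KO on the first scale and of WT on the rescaled one.

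Ordered by level in WT, *Yap1* stood first, followed by *Vgll4*, *Wwtr1*, *Tead3*, *Tead1*, *Tead2* and *Tead4*. The range of *Yap1* did not overlap that of *Vgll4*, and *Tead1*, *Tead2* and *Tead4* were likewise apart. *Wwtr1* and *Tead3* did not differ beyond their spread, *Wwtr1* being the higher in 5 of 6 libraries. The ranges of *Vgll4* and *Wwtr1*, and of *Tead3* and *Tead1*, also overlapped, with the first of each pair higher in 6 of 6. In KO the order was *Wwtr1*, *Vgll4*, *Tead3*, *Tead1*, *Yap1*, *Tead2* and *Tead4*. There *Wwtr1* and *Vgll4* overlapped (*Wwtr1* higher in 5 of 6), as did *Tead3* and *Tead1* (*Tead3* higher in 4 of 6). The ranges of *Yap1* and *Tead2* also overlapped, although *Yap1* was the higher in 6 of 6 KO libraries, and so did those of *Tead2* and *Tead4* (*Tead2* higher in 5 of 6).

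Ratios and shares of these genes within a library do not depend on how libraries are scaled, while their sums do. Both are given as a description. *Yap1* and *Wwtr1* together summed to 35.2 ± 4.62 TPM in WT (range 27.8 to 40.1) and 16.0 ± 0.689 TPM in KO (15.3 to 17.1; SD, n = 6 each). After rescaling the sums were 41.3 in WT (30.0 to 55.0) and 13.5 in KO (12.8 to 14.6). *Yap1* made up 83.8% ± 2.81 of that sum in WT, with a range of 79.2% to 87.7%. In KO it made up 12.6% ± 4.74, with a range of 6.43% to 18.8%. The ratio of *Wwtr1* to *Yap1* averaged 0.195 in WT and 8.10 in KO, where single livers ranged from 4.33 to 14.5. The rise of *Wwtr1* in TPM was thus smaller than the loss of *Yap1*, and the summed level of the pair in each KO liver was below that of each WT liver.

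The TEAD transcripts summed to 7.83 ± 1.54 TPM in WT (5.30 to 9.27) and 13.3 ± 1.49 TPM in KO (11.4 to 15.7; SD, n = 6 each). The genotypes were apart on deposited TPM and overlapped after rescaling, where the means were 8.99 in WT (7.32 to 9.98) and 11.1 in KO (9.89 to 11.8). KO male 2 was then below WT female 1. *Tead1* was 28.1% of the sum in WT (17.9% to 33.0%) and 40.6% in KO (28.9% to 52.2%). *Tead3* was 62.3% in WT (52.3% to 77.5%) and 52.3% in KO (43.0% to 65.6%), so both shares overlapped. *Tead2* was 7.77% and 4.82%, and *Tead4* 1.83% and 2.31%. Coactivator transcripts per TEAD transcript averaged 4.73 in WT (3.00 to 7.51) and 1.21 in KO (1.09 to 1.36). *Vgll4* per coactivator transcript averaged 0.299 in WT (0.182 to 0.468) and 0.801 in KO (0.554 to 1.09). Neither ratio overlapped between genotypes. *Vgll4* per TEAD transcript did overlap, averaging 1.43 in WT and 0.979 in KO. These are ratios of RNA and say nothing of protein amounts or of phosphorylation, by which the coactivators are mainly controlled.

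**Figure D3:**
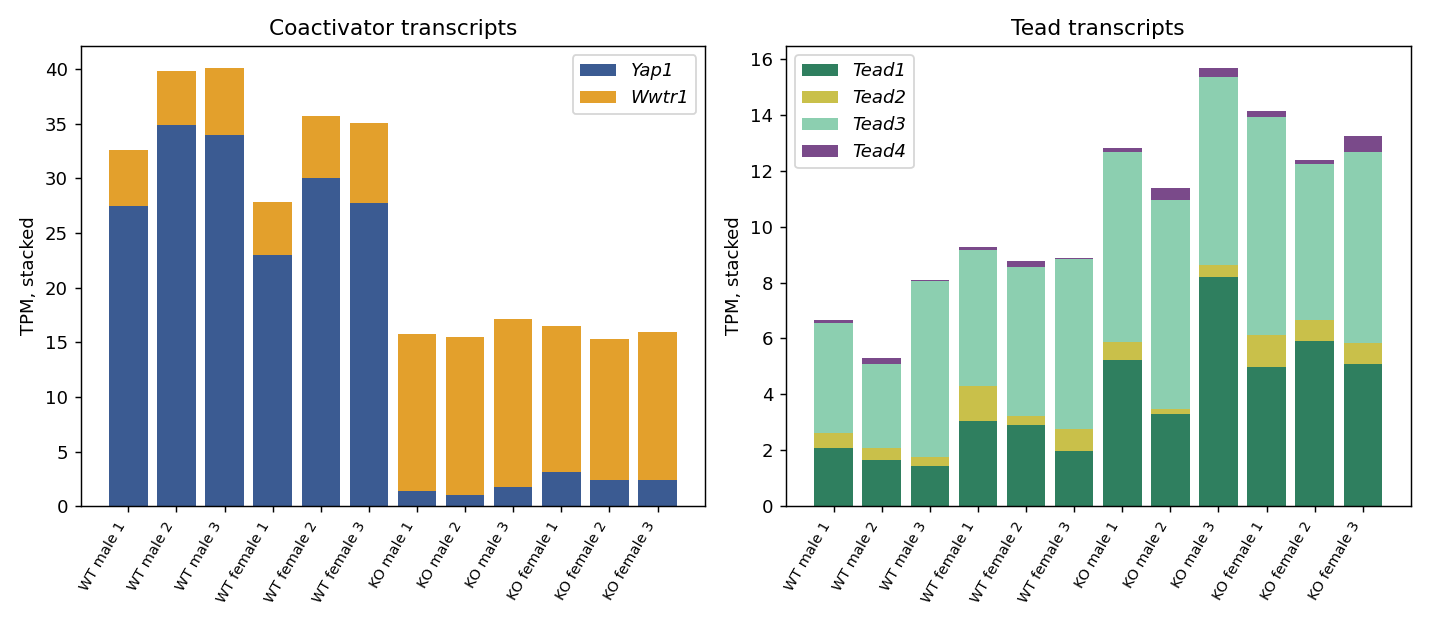
Stacked bars of TPM per library, with Yap1 and Wwtr1 in the left panel and the 4 Tead genes in the right. Yap1 fills most of each WT bar and Wwtr1 most of each KO bar, and every KO bar of the Tead genes is taller than every WT bar on this deposited scale (after rescaling KO male 2, at 9.89, is below WT female 1, at 9.98), with Tead1 averaging 40.6% of the sum in KO and 28.1% in WT with overlapping ranges.

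The remaining *Yap1* was compared between KO males and KO females, and limma did not call a difference after adjustment over all tested genes. As a percentage of the mean of WT livers of the same sex it was 4.33, 3.09 and 5.61 in KO males. In KO females it was 11.5, 9.08 and 8.94. After rescaling the percentages were 3.16, 2.12 and 3.31 in KO males and 8.39, 7.55 and 7.12 in KO females. The lowest female was above the highest male, a separation also seen for 5.09% of tested genes. On log2(TPM + 1) the difference of KO males from KO females was -0.62 (95% interval -0.99 to -0.24, limma unadjusted p = 0.00384, adjusted p = 0.692). Only 0.0814% of genes passed that comparison. The sex difference in the fall of *Yap1* was -0.86 (95% interval -1.40 to -0.33, limma unadjusted p = 0.00408, adjusted p = 0.221). After rescaling it was -1.05 (-1.55 to -0.55, limma unadjusted p = 0.000611, adjusted p = 0.0682), with 0.839% of genes called. Which cells carried the remaining *Yap1* RNA was not tested, and whether it comes from the deleted allele was not tested here, since exons were not analysed.

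The KO males and KO females did not overlap in *Yap1*, so a correlation over all 6 KO livers would mix the relation with sex and was not computed. The relation was instead tested within sex, on log2 values centred on the mean of the 3 livers of each sex, with exact permutation of the pairings within sex (36 pairings, smallest p 0.0278, two-sided). On rescaled TPM r was between -0.67 (*Tead4*) and 0.78 (*Tead2*) over the 6 genes, and the exact permutation p was 0.222 to 0.639, so 0 of 6 passed without adjustment. For *Wwtr1* r was -0.41 (exact permutation p = 0.639) on rescaled TPM and 0.67 (exact permutation p = 0.333) on deposited TPM, so its sign depends on the scale. For *Tead1* r was 0.75 and 0.78 (exact permutation p = 0.306 and 0.25). Side by side, the 3 KO males, with the lower *Yap1*, had *Wwtr1* at 14.4 to 15.3 TPM, and the 3 KO females had it at 12.9 to 13.5 TPM. Of tested genes, 4.41% had all KO males above all KO females. After rescaling the *Wwtr1* ranges overlapped, at 11.4 to 13.3 in males and 10.5 to 11.5 in females. The limma comparison of KO males with KO females gave 0.14 for *Wwtr1* (adjusted p = 0.889). For *Tead1*, *Tead3* and *Vgll4* the KO males and KO females overlapped. *Tead2* was lower in all 3 KO males than in all 3 KO females (0.183 to 0.634 against 0.745 to 1.11 TPM), as were 5.09% of tested genes, again without a limma call (-0.41, adjusted p = 0.859). In WT 0 of the 6 tested genes passed the limma comparison of the sexes on deposited TPM (0 also at an unadjusted p under 0.05). That comparison was passed by 5.74% of genes (705, and 290 to 1696 with a library left out). After rescaling, *Yap1* was higher in WT males than in WT females by 0.47 (limma unadjusted p = 0.0133, adjusted p = 0.114). Its rescaled means were 40.6 in WT males and 28.9 in WT females.

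**Figure D4:**
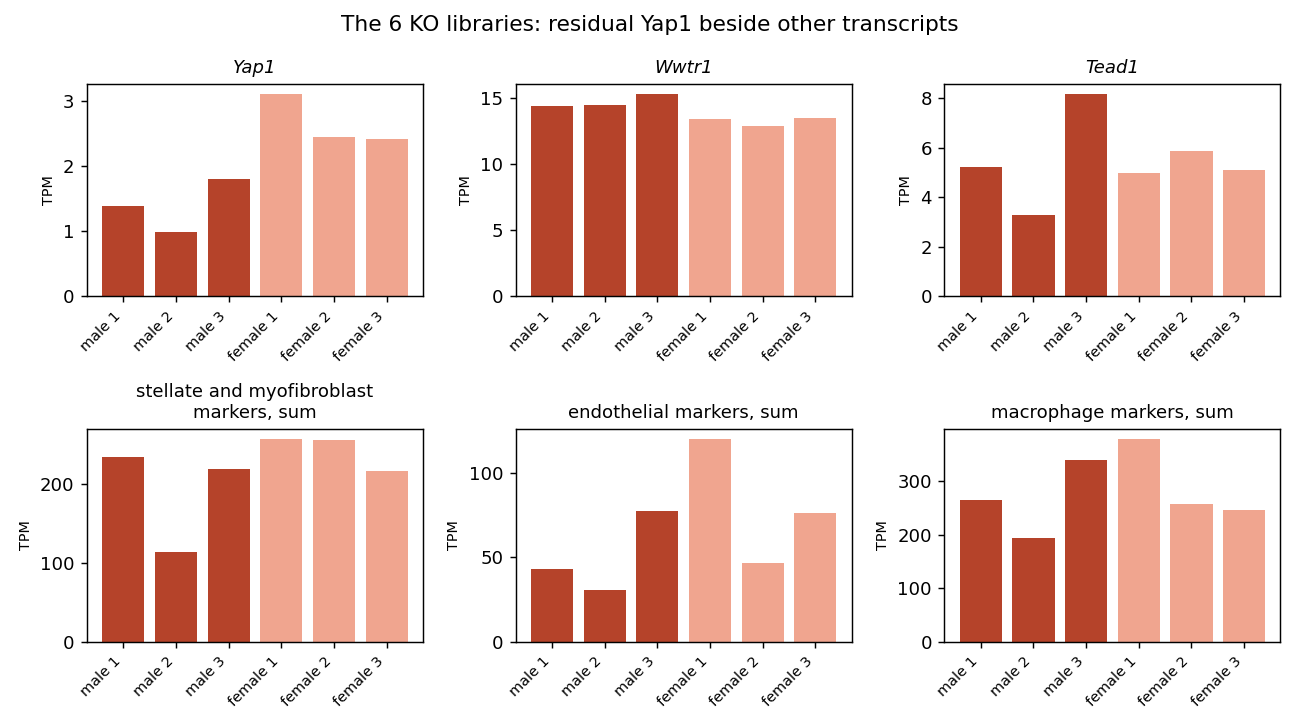
Bars of TPM in the 6 KO libraries for Yap1, Wwtr1, Tead1 and the summed stellate, endothelial and macrophage markers, with males and females in different shades. The 3 males are at or below 1.80 TPM of Yap1 and the 3 females at or above 2.41 TPM, and male 2 is lowest for Yap1, Tead1 and each of the 3 marker sums shown.

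The upstream part of the pathway was described by 26 genes for Hippo kinases, their scaffolds and their regulators. Of these, 24 were tested: 14 were higher in KO and 0 lower on deposited TPM (50.1% and 4.82% of all genes), and 6 were higher and 4 lower after rescaling (20.9% and 18.7%). The median difference was 0.43 against 0.35 for all genes, and 0.056 against -0.036 after rescaling. *Map4k4*, a kinase that can activate LATS, rose from 2.25 ± 0.475 to 10.996 ± 2.51 TPM (SD, n = 6 each; log2 difference 1.87, limma adjusted p = 5.49e-07). *Amot*, whose product binds YAP1 outside the nucleus, rose from 1.37 ± 0.480 to 4.72 ± 1.09 TPM (1.28, limma adjusted p = 1.89e-05). *Ajuba*, a LIM protein that restrains LATS, rose from 4.23 ± 1.64 to 11.6 ± 3.69 TPM (1.28, limma adjusted p = 0.000279). After rescaling all 3 passed, at 1.49, 0.95 and 0.87. The 4 lower genes on that scale, named after their values were seen, were *Amotl2* (-0.60), *Wwc1* (-0.58), *Nf2* (-0.49) and *Mob1b* (-0.27). *Nf2* encodes merlin and *Wwc1* encodes KIBRA, both activators of LATS.

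Of 22 known targets of YAP and TEAD, 18 were tested, with 10 higher and 1 lower on deposited TPM (50.1% and 4.82% of all genes). After rescaling 4 were higher and 3 lower (20.9% and 18.7% of all genes). The higher shares of the list are thus near those of all genes. *Amotl2*, *Lats2* and *Ptpn14* are in this list and in the Hippo list. The median was 0.53 against 0.35 for all genes, and 0.23 against -0.036 after rescaling. *Ccdc80*, a matrix protein gene, rose by 2.35 from 3.47 ± 1.16 to 22.5 ± 7.47 TPM (SD, n = 6 each; limma adjusted p = 6.91e-07). *Axl*, a receptor tyrosine kinase, rose by 2.18 from 5.69 ± 2.94 to 28.1 ± 6.88 TPM (limma adjusted p = 1.28e-06). *Myof*, the gene of a membrane repair protein, rose by 1.40 from 0.450 ± 0.105 to 2.87 ± 0.620 TPM (limma adjusted p = 1.39e-06). The gene that fell was *Igfbp3*, which binds insulin-like growth factors, at 10.99 ± 4.89 TPM in WT and 3.47 ± 1.30 TPM in KO (-1.39, limma adjusted p = 2.57e-05). After rescaling these 4 targets also passed, with *Ccdc80* at 1.95, *Axl* at 1.76, *Myof* at 1.16 and *Igfbp3* at -1.76. *Igfbp3* was named after its values were seen. Stellate and macrophage marker sums were higher in all KO livers than in all WT livers, and their part in these target values was not tested.

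The remaining Vgll cofactors and TEAD-binding partners, 5 genes, were all under the minimum mean and 0 were tested. Their values are given as a description. *Vgll3* was at 0.0820 ± 0.0461 TPM in WT (0 to 0.132) and 0.480 ± 0.237 TPM in KO (0.153 to 0.814; SD, n = 6 each). The genotypes were apart on that scale, as for 28.7% of tested genes, but overlapped after rescaling (0 to 0.144 in WT and 0.133 to 0.726 in KO). *Fam181a* averaged 0.0741 TPM in WT and was listed at 0 in all KO livers. *Fam181b* averaged 0.0849 TPM in WT and 0.0251 TPM in KO, with overlap. *Vgll2* was above 0 in 1 KO liver, at 0.0649 TPM, and *Vgll1* was listed at 0 throughout. The authors' deposited table gives log2 fold changes of 2.28 for *Vgll3* (FDR printed as 0), -2.62 for *Fam181a* (FDR 0.37), -2.60 for *Fam181b* (FDR 0.12) and 0.55 for *Vgll2* (FDR 0.89).

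**Figure D5:**
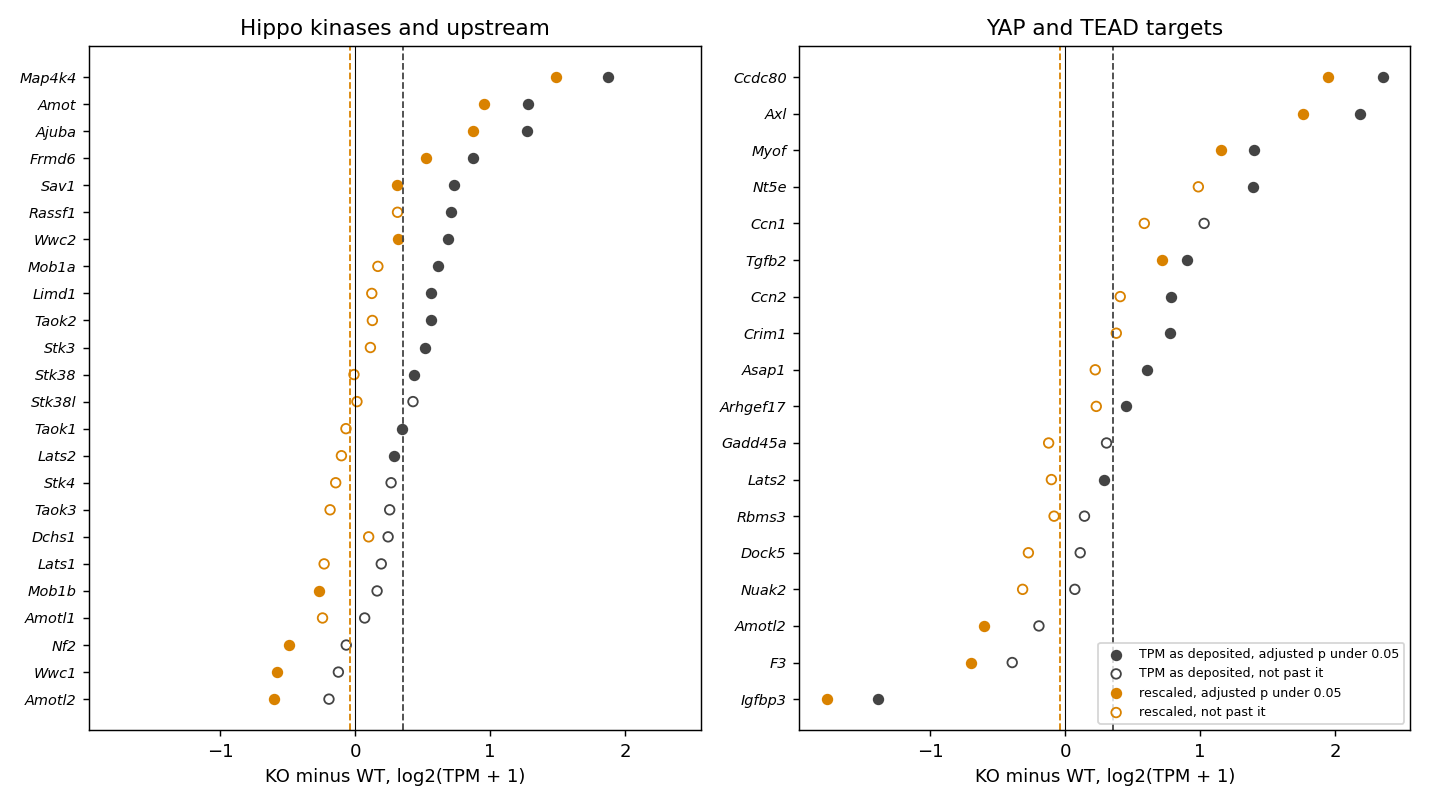
KO minus WT difference on log2(TPM + 1) for the 24 tested Hippo genes (left) and the 18 tested targets (right), on deposited and rescaled TPM, with filled points for a limma adjusted p under 0.05 and dashed lines at the median of all tested genes. Map4k4, Amot and Ajuba lie farthest to the positive side among the Hippo genes, and the targets spread from Igfbp3 at -1.39 to Ccdc80 at 2.35 on deposited TPM.

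The tested genes whose rescaled pattern over the 12 libraries was most like each gene were found by Pearson correlation of log2 values, given without a test. Genotype and library are shared by all points, so a gene that differs strongly between genotypes correlates with others that do. For *Yap1* they were *Lifr* (r = 0.988), *Sult2a8* (0.987) and *Npr2* (0.982). *Lifr* averaged 85.6 ± 16.2 TPM in WT and 17.2 ± 2.91 TPM in KO (SD, n = 6 each). For *Wwtr1* they were *Tspan9* (0.980), *Asxl1* (0.980) and *Ano10* (0.977), and *Tspan9* averaged 11.5 ± 1.504 TPM in WT and 35.1 ± 2.89 TPM in KO. For *Tead1* they were *Git1* (0.943), *Tbc1d9* (0.932) and *Hip1* (0.932). For *Vgll4*, *Dusp6* came first (0.934), with 52.2 ± 33.6 TPM in WT and 57.6 ± 18.4 TPM in KO. The leading genes for *Tead2*, *Tead3* and *Tead4* were *Nt5m* (0.915), *Bex4* (0.916) and *Apbb1* (0.837).

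The authors' deposited table of KO against WT gives the log2 fold changes -4.32 for *Yap1*, 0.83 for *Wwtr1* and 0.86 for *Tead1*, each with an FDR printed as 0. In the authors' deposited table *Tead3* is at 0.22 (FDR 0.51), *Tead2* at -0.11 (FDR 0.9) and *Tead4* at 0.42 (FDR 0.72). The same deposited table lists *Vgll4* at -0.52 with an FDR of 0.04, where the limma difference on deposited TPM was 0.30 and on rescaled TPM -0.13. An FDR below 0.05 is given for 24.2% of the 17332 genes with a value in the authors' deposited table. The cause of the difference for *Vgll4* was not tested.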

How the data were processed

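Whole-liver RNA was extracted with Trizol and silica columns with DNase digestion, and an outside company made Illumina libraries, per the labels' protocols. The authors deposited 1 TPM column per mouse, and each sums to 1000000. The deposited table also holds the authors' fold change, log2 fold change and FDR p-value, copied for comparison only. GRCm38 and edgeR are named in the submitters' processing notes. The aligner, the counter and the use of strand are not given in the sources used here. 0 sample columns were unmatched.

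TPM were analysed as log2(TPM + 1) for 12278 genes with a mean of at least 0.5 TPM, with limma 3.58.1 in R 4.3.3 (intensity trend, all 12 samples, Benjamini-Hochberg over all tested genes, two-sided, threshold 0.05). The genotype fit had sex as covariate, and sex contrasts came from 4 group means. Single genes were also tested by exact permutation within sex (400 arrangements). The limma script was tested on simulated data. Reads per gene were recovered from TPM steps, whole within 0.001 for all low genes checked. No count test was run. Gene positions are from GENCODE mouse release M21 on GRCm38. Alternatives were median-of-ratios rescaling, a pseudocount of 0.1, no low-value filter, omission of the 20 most abundant genes, an early-series term, no intensity trend, fits with 1 sex only and omission of each library in turn.

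The genes and lists were chosen with earlier results of these data known. Each list's 3 called genes with the largest differences, and each gene's 3 most alike, were to be named.

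All libraries carry the same lane label. The library number of WT male 2 belongs to a separate series, and WT female 3 and KO female 1 have early animal numbers; the 2 early animals are too few for a within-series value. The labels do not say whether littermates were used.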

Additional observations from a re-analysis of the deposited data

How the results depend on the processing

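No paired analysis was possible because replicate numbers follow the order of deposition and pair no animals. The *Yap1*, *Wwtr1* and *Tead1* genotype differences kept their direction and their limma call under every alternative run. With each library left out in turn, they were -3.46 to -3.26, 1.14 to 1.26 and 0.86 to 1.11. After rescaling, *Tead2* was -0.14, *Vgll4* -0.13 and *Tead3* 0.048, and *Tead3* was then not called. With each library left out, *Tead2* was -0.062 to 0.10, *Tead3* 0.33 to 0.53 and *Vgll4* 0.18 to 0.40.

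Rescaling also turned the sign of differences that no test called: *Wwtr1* between WT sexes (0.084), *Tead2* in females (-0.074), *Tead3* in females (-0.036) and *Vgll4* in males (-0.28). Leaving out libraries did so for *Wwtr1* between WT sexes (-0.22 to 0.027), *Tead1* between KO sexes (-0.29 to 0.26), *Tead3* between KO sexes (-0.054 to 0.15) and *Vgll4* between KO sexes (-0.011 to 0.39). The ranges were -0.14 to 0.10 for *Tead2* in males, -0.11 to 0.27 in females and -0.29 to 0.083 for its interaction. For *Vgll4* they were -0.018 to 0.47 in males and -0.36 to 0.14 for the interaction. The cause was not tested.

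Genes called in males numbered 5663, and 2959 after rescaling. Interaction genes numbered 112, and 75 to 176 with a library left out. WT sex genes numbered 705, 409 with an early-series term and 290 to 1696 with a library left out. KO sex genes numbered 10, and 6 to 10. Hippo genes went from 14 higher and 0 lower to 6 and 4 after rescaling (13 to 14 and 0 with a library left out), and targets from 10 and 1 to 4 and 3 (8 to 10 and 1 to 2). The correlation with remaining *Yap1* over all 6 KO livers was not run, since the sexes did not overlap in *Yap1*. Within sex it passed for 0 of 6 genes by exact permutation on either scale. *Tead4* and *Tead2* rest on the fewest reads, 2 to 21 and 6 to 46 per library.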
